A study of Mus musculus with 94 samples.

Results

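The expression of LINE-1 (L1) elements was compared between the cerebral cortex and the hippocampus of the same wild-type (WT) mice. The members were all WT mice with a library from each tissue, paired by the animal number in the sample labels, which gave 25 of the 48 mice and 50 of the 94 libraries of the series. Of these mice, 8 drank water (WT-nt) and 17 received lamivudine, an inhibitor of reverse transcriptase, at 3 mg/kg in the drinking water for 4 months (WT-t), and 1 further WT-nt mouse with a cortex library only was left out. All were male littermates without trisomy, born to B6EiC4Sn.BLiA-Ts(1716)65Dn/DnJ mothers and B6C3F1/OlaHsd fathers, and aged 3 to 4 months according to the labels. Whether this is the age before the 4 months of treatment or at dissection is not stated. For comparison, 21 Ts65Dn (TS) mice with both tissues were used, a Down syndrome model that is trisomic for segments of MMU16 and MMU17. Each library comes from dissected tissue that holds many cell types, so that fewer cells of a type and less RNA per cell cannot be told apart. Per the methods of the study, parts of each cortex were taken to match the size of the hippocampi, and groups of 3 samples of a condition were pooled before RNA quality was checked, whereas the labels give 1 mouse for each library. Whether pools were sequenced is not clear from these sources, and if so, the libraries would not be separate mice and the pairing would be affected. The table holds L1 elements only, with no genes, and the dissection could therefore not be checked against markers of either tissue.

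L1s are retrotransposons that copy themselves through an RNA intermediate with a reverse transcriptase they encode. The mouse genome holds a very large number of copies, most of them truncated, and only some copies of the youngest subfamilies, L1Md_A, L1Md_T and L1Md_Gf, can still move. L1Md_F, L1_Mus, L1_Mur and Lx are older subfamilies of the mouse and rodent lineage, whereas the L1M subfamilies (L1MA to L1ME and L1M with a number) are relics shared among mammals, and HAL1 elements derive from L1s but lack the reverse transcriptase. RNA from an L1 sequence can come from its own promoter or from a transcript that runs through it, and read counts do not separate these. Near-identical young copies share reads, which the counting tool (Telescope) assigns to the most probable copy, so the values of single L1Md copies are uncertain.

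The position in the genome is known here for a few of the L1s. Of the 60 L1s that the study lists by position on GRCm38/mm10 for other comparisons, 59 have a single position, of which 33 had enough counts to be tested and 11 passed the test between cortex and hippocampus (16.5% of all elements tested did). Among these, 2 lie in exons of non-coding transcripts on the same strand, and their sequence is given as an example of the L1 sequence that carried a tissue difference. L1ME3A_dup48 lies on chromosome 1 (57041644 to 57042051, plus strand) and is contained as a whole in an exon of the non-coding gene 9130024F11Rik. Lx7_dup11750 lies on chromosome 5 (107390722 to 107393003, minus strand), and 273 of its 2282 bases lie in an exon of the antisense gene Gm42902. The sequences are those of the annotated transcripts (GENCODE vM21), 5′ to 3′, for the first 300 bases of the former (chr1:57041644-57041943) and the exonic 273 bases of the latter (chr5:107392731-107393003), all in lower case because no motif was marked.
L1ME3A_dup48: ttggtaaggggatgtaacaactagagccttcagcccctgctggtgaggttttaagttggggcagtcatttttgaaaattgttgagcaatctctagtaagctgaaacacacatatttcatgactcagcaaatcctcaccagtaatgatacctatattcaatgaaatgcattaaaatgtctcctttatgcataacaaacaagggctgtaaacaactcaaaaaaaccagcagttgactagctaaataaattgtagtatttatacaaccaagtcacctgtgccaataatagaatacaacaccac
Lx7_dup11750: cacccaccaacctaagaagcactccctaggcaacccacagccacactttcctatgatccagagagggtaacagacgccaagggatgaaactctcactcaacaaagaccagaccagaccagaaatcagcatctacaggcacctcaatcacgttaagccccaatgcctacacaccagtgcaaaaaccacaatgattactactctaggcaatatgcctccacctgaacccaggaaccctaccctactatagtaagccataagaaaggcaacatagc
The G and C content was 37% in the former and 48.7% in the latter stretch. Both L1s were higher in cortex.

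The cortex libraries held between 186545 and 1165192 L1 counts (median 326153), and the hippocampus libraries between 178454 and 327468 (median 259373). A principal component analysis within each tissue set libraries of 6 mice apart (1, 3, 4, 22, 24 and 47, numbered here in the order of the series), at a distance of over 3 median absolute deviations on the first component, which held 31.9% of the variance in cortex and 9.79% in hippocampus. The cortex library of mouse 1 had counts on only 3168 elements, with 24.2% of them on a single L1, and the cortex library of mouse 24 had the highest L1 total. Counts of calls are therefore also given without these 6 mice, and all 34 single L1s and 16 subfamilies chosen by the naming rule and called were also called without them, in the same direction. Fewer of them were called within a treatment group. In WT-nt mice alone, these were 14 of the 22 single L1s that could be tested and 2 of the 16 subfamilies. In WT-t mice alone they were 21 of 26 and 12 of 16. None of the lost calls turned direction. Labels of the mice begin with 18 (6 WT-t mice), 19 (8 WT-t mice) or 20 (8 WT-nt and 3 WT-t mice), and since each mouse is compared with itself, this does not separate the tissues. When both tissues were analyzed together, the second principal component (9.33% of the variance) was higher in hippocampus than in cortex in 25 of 25 mice.

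A total of 4975 of the 430083 elements in the table passed the filter on low counts, and they held 51.8% of the L1 counts of a cortex and 58.5% of those of a hippocampus library on average. Expression is given as CPM (counts of an element per 1000000 L1 counts of its library, scaled with edgeR's TMM factors), and a positive log2 fold change means higher in cortex, with its standard error (SE). Higher or lower expression is thus relative to the other L1s of a library, and the direction relative to all RNA was not determined. The highest cortex values can also depend on this scaling, as given below for abundant L1s. At an adjusted p-value below 0.1 (edgeR's quasi-likelihood test with the mouse as a block, Benjamini-Hochberg adjustment), 823 L1s (16.5% of those tested) differed between the tissues, 337 with higher expression in cortex (6.77%) and 486 in hippocampus (9.77%). The fitted difference exceeded 2-fold for 265 of the L1s higher in cortex and for 252 of those higher in hippocampus, and 4-fold for 96 and 78. The split between the directions depended on the scaling and the libraries. Without TMM factors, where the median log2 fold change of all elements fell from -0.07 to -0.20, 264 L1s were higher in cortex and 715 in hippocampus, and without the 6 mice with an outlying library the counts were 594 and 513.

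**Figure D1:**
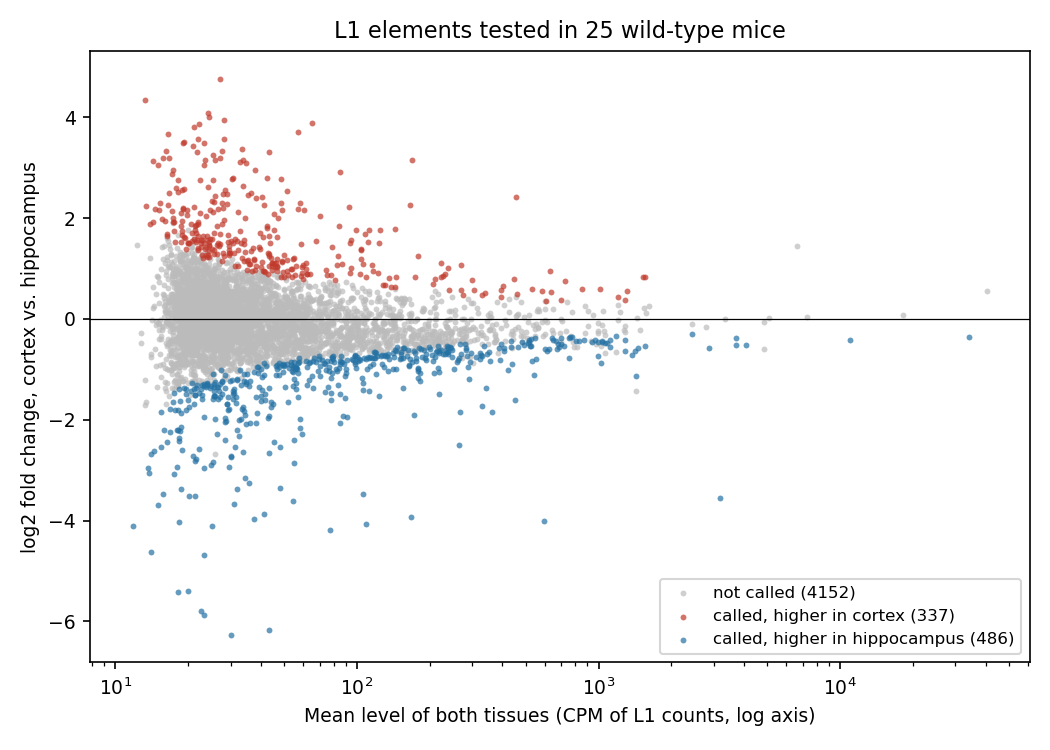
Log2 fold change between cortex and hippocampus (y axis, positive is higher in cortex) against the mean CPM of both tissues (x axis, log scale) for the 4975 L1 elements tested in 25 WT mice. Each point is an element, with 337 called higher in cortex in red, 486 called higher in hippocampus in blue and the others in grey.

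The L1 with the smallest p-value was L1ME4a_dup1041, an ancient mammalian element and one of the more abundant L1s of the hippocampus. It had 103, 529.9 and 699.9 CPM in cortex and 4158, 6047 and 7767 CPM in hippocampus (lowest, median and highest of the 25 mice), and the tissues did not overlap. The means were 508 ± 124 and 5878 ± 970.4 CPM (SD, n = 25), with a log2 fold change of -3.56 (SE 0.12, adjusted p = 1.37e-47). L1ME4a_dup616, another copy of that subfamily, was also higher in hippocampus in 25 of 25 mice, with 0, 77.9 and 194 CPM in cortex and 251, 424 and 745 CPM in hippocampus (lowest, median and highest), a log2 fold change of -2.51 (SE 0.23, adjusted p = 6.25e-16). Its highest cortex value was below its lowest hippocampus value.

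Several of the other L1s with the smallest p-values were close to undetected in cortex and moderately expressed in hippocampus. L1MA4_dup3516 had 0, 0 and 14.1 CPM in cortex and 3.92, 76.01 and 199.9 CPM in hippocampus (lowest, median and highest of the 25 mice). It had no count in 22 of the 25 cortex libraries, and at least 1 count in every hippocampus library, with a log2 fold change of -6.18 (SE 0.49, adjusted p = 4.84e-19). L1M4_dup5561 had 3 counts in total in cortex and 402 in hippocampus, a ratio of 182 relative to the L1 totals (95% exact interval 61.8 to 885, counting error only). This ratio pools the raw counts of all libraries and is not on the scale of the fitted values. The fitted log2 fold change of L1M4_dup5561 was -6.26 (SE 0.54, adjusted p = 5.38e-17). This L1 reached at most 6.31 CPM in cortex and was at least at 8.13 CPM in hippocampus, so that its tissues did not overlap either. L1MC5_dup3262, with 7 counts in cortex and 308 in hippocampus, and L1MEf_dup1804, with 4 and 299, were also near the limit of detection in cortex, with fitted log2 fold changes of -5.87 (SE 0.59, adjusted p = 5.96e-14) and -5.80 (SE 0.59, adjusted p = 8.46e-14). The tissues overlapped for L1MC5_dup3262 and did not for L1MEf_dup1804. All 4 belong to the ancient L1M subfamilies.

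Elements of rodent subfamilies were found among the strongest hippocampus differences as well. Lx5_dup6692 had 0, 18.2 and 56.4 CPM in cortex and 113, 175 and 342 CPM in hippocampus (lowest, median and highest of the 25 mice), a log2 fold change of -3.48 (SE 0.32, adjusted p = 6.25e-16). Lx5_dup6693, the copy with the next number, had 0, 6.17 and 34.4 CPM in cortex and 61.8, 154 and 221 CPM in hippocampus, a log2 fold change of -4.18 (SE 0.36, adjusted p = 6.42e-17). For both of them, every hippocampus library lay above every cortex library. L1_Mus4_dup10507 had medians of 15.6 and 283 CPM, with a log2 fold change of -3.92 (SE 0.35, adjusted p = 5.96e-14), and L1_Mur3_dup13179 of 161 and 545 CPM, with -1.85 (SE 0.20, adjusted p = 9.04e-13). In cortex, L1_Mus4_dup10507 reached 278 CPM in 1 library and overlapped with the hippocampus values, although each mouse had the higher value in hippocampus. The tissues did not overlap for 9 of the 4975 elements (0.181%), and all 9 were higher in hippocampus: the 7 of these 10 elements for which this was so, and L1MA6_dup3375 and L1MA6_dup2741, named after their values were seen. An element without a count in any cortex library could not lie above every hippocampus library. The cortex library of mouse 1 had counts on only 3168 elements, so many elements could not be counted in the cortex direction. The split of the 9 was not tested without that library.

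The L1 with the smallest p-value among those higher in cortex was Lx_dup1329. It had 291, 586 and 2619 CPM in cortex and 39.97, 108 and 508 CPM in hippocampus (lowest, median and highest of the 25 mice). It was higher in cortex in 25 of 25 mice, with a log2 fold change of 2.43 (SE 0.20, adjusted p = 3.79e-18), but the ranges of the tissues overlapped. Lx9_dup10582 had 80.2, 241 and 1190.5 CPM in cortex and 0, 29.4 and 155 CPM in hippocampus, again higher in cortex in 25 of 25 mice, with a log2 fold change of 3.16 (SE 0.27, adjusted p = 5.38e-17). Both are rodent elements. Mouse and rodent subfamilies held 291 of the 337 L1s called higher in cortex and 273 of the 486 called higher in hippocampus. They also held 3557 of the 4975 elements tested.

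Among the L1s with the smallest p-values higher in cortex were copies of the L1Md subfamilies L1Md_T and L1Md_F2, for which single copies are uncertain. L1Md_T_dup6533 had 0, 123 and 267 CPM in cortex and 0, 3.79 and 57.9 CPM in hippocampus (lowest, median and highest of the 25 mice), a log2 fold change of 3.89 (SE 0.41, adjusted p = 7.57e-13). It had no count in 12 of 25 hippocampus libraries and in 1 cortex library. L1Md_T_dup2410 had medians of 92.8 CPM in cortex and 0 CPM in hippocampus, where 13 libraries had no count, and a log2 fold change of 3.71 (SE 0.41, adjusted p = 6.92e-12). L1Md_T includes copies that can still move, but whether these copies can is not known from the counts. L1Md_F2_dup42423 and L1Md_F2_dup42424 carry consecutive numbers and had medians of 48.8 and 60.96 CPM in cortex against 0 and 3.59 CPM in hippocampus. Their log2 fold changes were 4.77 (SE 0.60, adjusted p = 5.72e-10) and 3.30 (SE 0.44, adjusted p = 6.33e-09). L1Md_F2_dup15715 was expressed in every library, at 223 ± 73.5 CPM in cortex and 65.7 ± 28.1 CPM in hippocampus (SD, n = 25), with a log2 fold change of 1.79 (SE 0.26, adjusted p = 5.35e-08).

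The remaining L1s of this set were Lx9_dup15504, Lx2B2_dup10408 and HAL1_dup1487. The first 2 had no count in 15 and 17 of the 25 hippocampus libraries and medians of 51.04 and 38.98 CPM in cortex, with log2 fold changes of 3.94 (SE 0.53, adjusted p = 6.92e-09) and 4.01 (SE 0.56, adjusted p = 2.34e-08). HAL1_dup1487, of the HAL1 group, was higher in cortex in 24 of 25 mice, at 265 ± 101 against 66.3 ± 53.4 CPM (SD, n = 25), a log2 fold change of 2.26 (SE 0.27, adjusted p = 4.91e-11). Of the 38 called L1s with the same direction in all 25 mice, 4 were higher in cortex and 34 in hippocampus. However, an L1 without a count in a cortex library could not be higher in cortex in that mouse. In mouse 1, only 3168 elements had a count in cortex, so this criterion was harder to meet in the cortex direction. The split of the 38 was not tested without the mice with an outlying library.

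**Figure D2:**
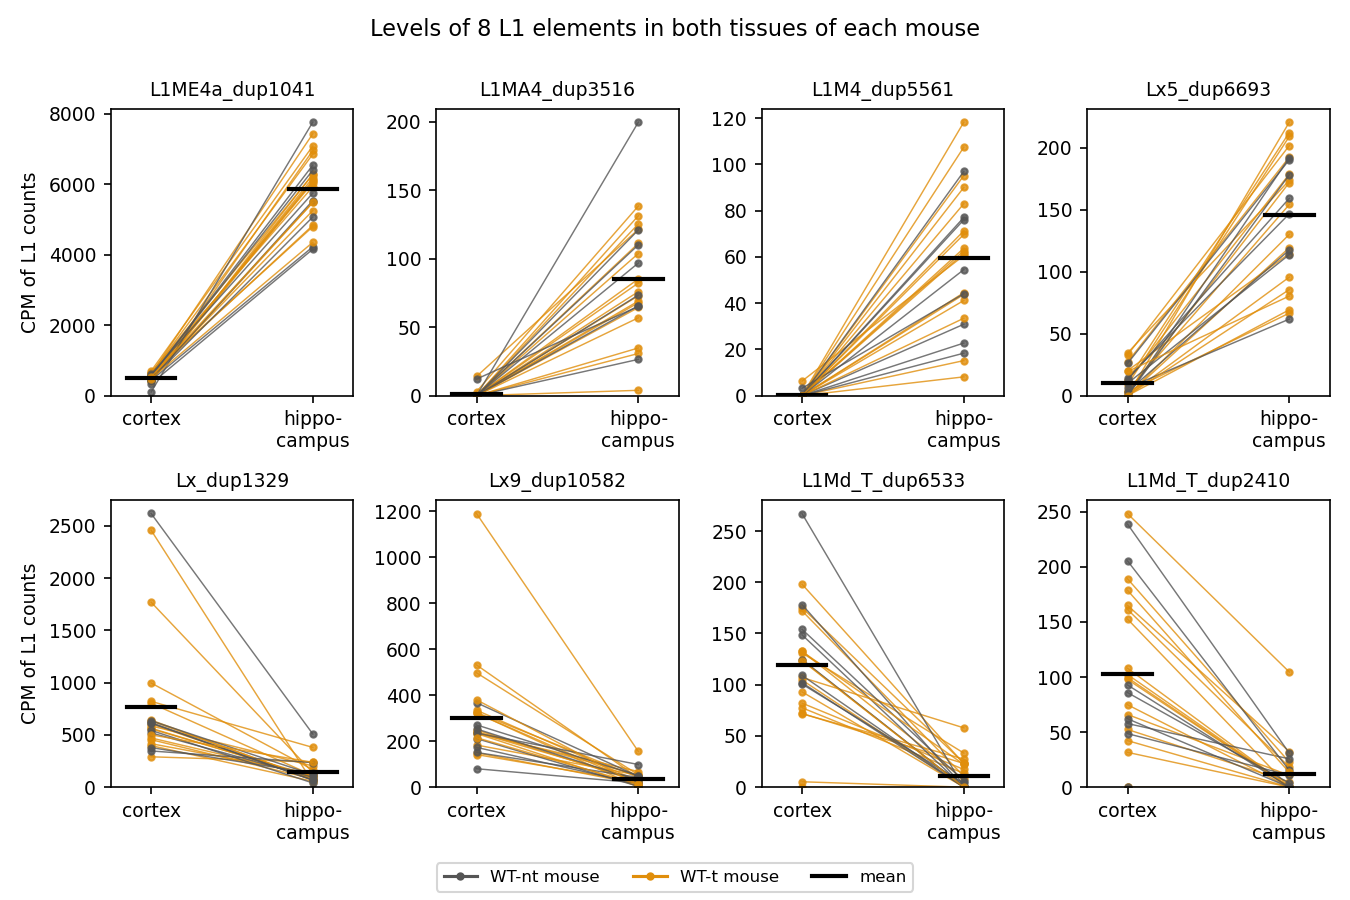
CPM (y axis, linear and starting at 0) of 8 L1 elements in cortex and hippocampus of each of the 25 WT mice. Each line joins the values of a mouse (grey WT-nt, orange WT-t) and the black bar is the mean. The upper 4 elements are the ones with the smallest p-values higher in hippocampus and the lower 4 those higher in cortex. In the upper row every line rises to hippocampus, and in the lower row nearly every line falls.

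The 5 most abundant L1s of each tissue were 6 different elements, of which 2 passed the threshold, both with higher expression in hippocampus. L1MEd_dup2089 had the highest mean CPM in cortex, where it ranged from 327 to 186587 CPM with a median of 35504, against a median of 28951 CPM in hippocampus. Its difference did not pass the threshold, with a log2 fold change of 0.56 (SE 0.27, adjusted p = 0.198). On the TMM-scaled values, the lowest cortex value was that of mouse 45 and the highest that of mouse 24. However, L1MEd_dup2089 held 24.2% of the L1 counts in the cortex library of mouse 1 and 7.48% in that of mouse 24. Which mouse had the highest value thus depends on the scaling. L1ME3Cz_dup549 was the most abundant L1 in hippocampus, at 38497 ± 12009 CPM, and had 29616 ± 8083 CPM in cortex (SD, n = 25), a log2 fold change of -0.36 (SE 0.11, adjusted p = 0.0331) that was lost with DESeq2 size factors (-0.24, adjusted p = 0.148). L1MEi_dup274 was also called higher in hippocampus, at 12576 ± 3752 against 9304 ± 2404 CPM, a log2 fold change of -0.42 (SE 0.11, adjusted p = 0.00895). The other abundant L1s did not pass the threshold. Lx7_dup29483 had 18985 ± 4695 and 17568 ± 2404 CPM and a log2 fold change of 0.08 (SE 0.08, adjusted p = 0.598), a sign that turned without TMM factors (-0.06), while the difference passed the threshold with DESeq2 size factors (0.20, adjusted p = 0.00165).

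The 2 remaining abundant L1s varied widely between mice. L1Md_T_dup9904 ranged from 0 to 106138 CPM in cortex, with a median of 1662, and from 15.1 to 3605 CPM in hippocampus, with a median of 819 and a log2 fold change of 1.45 (SE 0.76, adjusted p = 0.246). The highest of these cortex values was that of mouse 24. Without TMM factors the highest cortex value of this L1 was 171813 CPM, so the upper end of the range depends on the scaling. Lx3B_dup3459 had 96.02, 7089 and 23299 CPM in cortex and 49.98, 7204 and 15022 CPM in hippocampus (lowest, median and highest), with a log2 fold change of 0.03 (SE 0.09, adjusted p = 0.883). It lay below 1000 CPM in 5 mice, and these were the same 5 mice in both tissues. Its sign turns without TMM factors (-0.11).

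Among the ancient L1M elements, more were called higher in hippocampus than in cortex, whereas the calls of mouse and rodent elements were split about evenly. Of the 1376 ancient L1M elements tested, 44 were higher in cortex (3.20%) and 206 in hippocampus (14.97%). Of the 3557 elements of the mouse and rodent subfamilies (L1Md, L1_Mus, L1_Mur, Lx and their relatives), 291 were higher in cortex (8.18%) and 273 in hippocampus (7.68%). The shares over all elements were 6.77% and 9.77%. The median log2 fold change was -0.28 for the former and 0.04 for the latter elements. Without TMM factors these medians were -0.41 and -0.10, so the sign of the second depends on the scaling, but the L1M median was the lower one under each scaling (-0.19 and 0.13 with DESeq2 size factors). Without the 6 mice with an outlying library, 100 L1M elements were higher in cortex and 220 in hippocampus, and 489 and 287 of the mouse and rodent elements.

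Each of the 4 ancient groups had the same balance. In L1ME, 10 of 312 elements were higher in cortex and 53 in hippocampus, in L1MC and L1MD 11 and 53 of 351, in L1MA and L1MB 9 and 58 of 400, and in the other L1M subfamilies 14 and 42 of 313. Among HAL1 elements the counts were 2 and 6 of 39. The opposite balance was found in Lx and Lx2, with 32 higher in cortex and 15 in hippocampus of 266, in L1Md_F2 with 44 and 29 of 456, and in L1_Mus and L1_Mm with 52 and 36 of 721. Counts in the 2 directions were close to each other in L1Md_A (9 and 9 of 112), in L1Md_T (14 and 12 of 154) and in L1_Mur, L1VL and L1_Rod (19 and 19 of 283). Other rodent classes had more calls higher in hippocampus. In L1Md_F and L1Md_F3 there were 5 and 10 of 101, and in Lx3 and Lx4 20 and 26 of 225. In Lx8, Lx9 and Lx10 there were 54 and 70 of 726, and in Lx5 and Lx6 25 and 28 of 323. Lx7 had 17 and 19 of 183, and L1Md_Gf 0 and 0 of 7.

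Counts were then summed over all elements of a subfamily, also those too low to be tested singly. Of 132 subfamilies tested, 78 (59.1%) differed between the tissues relative to the L1 counts of a library, 39 with higher expression in cortex (29.5%) and 39 in hippocampus (29.5%). The differences were small compared with those of single elements, since 38 of the 39 subfamilies higher in cortex and 35 of the 39 higher in hippocampus differed by less than 0.5 on the log2 scale. Of the 39 mouse and rodent subfamilies, 30 were higher in cortex and 1 in hippocampus (Lx10, with a log2 fold change of -0.10). Of the 84 L1M subfamilies, 9 were higher in cortex and 34 in hippocampus, and of the 6 HAL1 subfamilies, 3 were higher in hippocampus. Without TMM factors, 18 mouse and rodent subfamilies were higher in cortex and 2 in hippocampus, and 5 and 38 L1M subfamilies. Without the 6 mice with an outlying library the counts were 26 and 2, and 10 and 37.

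**Figure D3:**
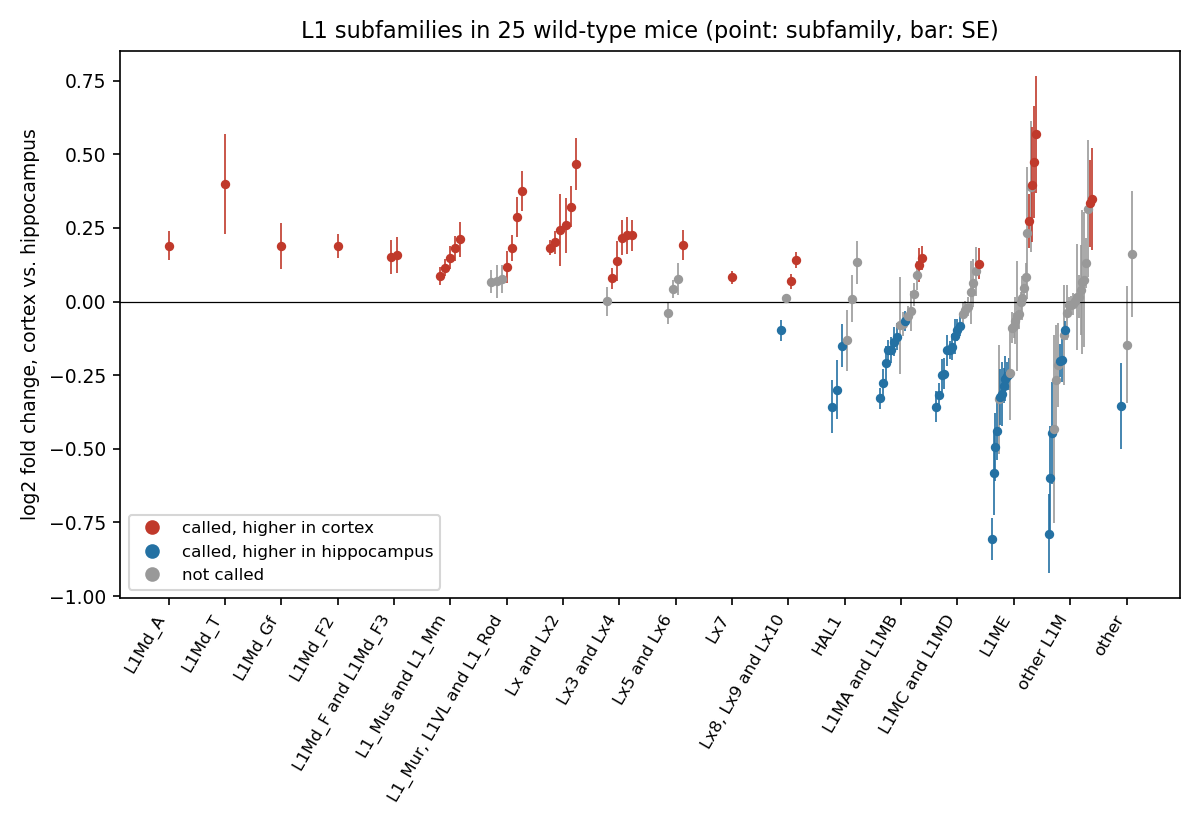
Log2 fold change between cortex and hippocampus (y axis, positive is higher in cortex) of the 132 L1 subfamilies tested, grouped by class from the youngest mouse subfamilies at the left to the ancient mammalian ones at the right (x axis). Points are subfamilies, bars the standard error, and colour marks the subfamilies called higher in cortex (39, red) or hippocampus (39, blue). Called subfamilies of the L1Md to Lx classes lie above 0 except for Lx10, and most called ones of the L1M classes lie below 0.

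Among the ancient subfamilies, L1ME4a had the largest difference, with 4810, 10094 and 14429.7 CPM in cortex and 13296, 18338 and 25271 CPM in hippocampus (lowest, median and highest) and a log2 fold change of -0.81 (SE 0.07, adjusted p = 5.93e-10). It was higher in hippocampus in 25 of 25 mice, and L1ME4a_dup1041 held 21.4% of its counts. L1MA6 and L1MC5 were also higher in hippocampus in each of the 25 mice. L1MA6 had 6294 ± 449.9 CPM in cortex and 7916 ± 707 CPM in hippocampus (SD, n = 25), with a log2 fold change of -0.33 (SE 0.03, adjusted p = 1.86e-08), and L1MC5 had 6789 ± 876 and 8426 ± 787 CPM, with -0.32 (SE 0.04, adjusted p = 1.57e-06). L1MD1 was higher in hippocampus in 24 of 25 mice, with a log2 fold change of -0.36 (SE 0.05, adjusted p = 5.14e-06). L1M2b had a log2 fold change of -0.79 (SE 0.13, adjusted p = 5.19e-05), but 99.0% of its counts lay on a single copy, L1M2b_dup14, without which its sign turned (0.56, adjusted p = 0.564). A single copy held more than 90% of the counts in 8 of the 78 called subfamilies, 2 higher in cortex and 6 in hippocampus. Without the most abundant copy of each subfamily, 31 subfamilies were higher in cortex and 29 in hippocampus.

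Among the rodent subfamilies, Lx was higher in cortex in 25 of 25 mice, with 23873, 26041 and 37713 CPM in cortex and 21674, 23502 and 24552 CPM in hippocampus (lowest, median and highest) and a log2 fold change of 0.18 (SE 0.03, adjusted p = 5.14e-06). Lx9, Lx2B2 and L1_Mur1 were higher in cortex in 24 and Lx2A1 in 23 of 25 mice. Their log2 fold changes were 0.14 (SE 0.03, adjusted p = 1.81e-04) for Lx9, 0.20 (SE 0.04, adjusted p = 1.81e-04) for Lx2B2, 0.38 (SE 0.07, adjusted p = 7.31e-05) for L1_Mur1 and 0.47 (SE 0.09, adjusted p = 1.23e-04) for Lx2A1. The call of Lx9 was lost without TMM factors (0.08, adjusted p = 0.124). The fitted differences were below 1.4-fold, and in cortex L1_Mur1 ranged from 2504 to 8544 CPM and Lx2A1 from 1017 to 4807 CPM.

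All 6 L1Md subfamilies were called higher in cortex in the 25 mice. In the 8 WT-nt mice alone, 0 of 131 subfamilies were called higher in cortex. L1Md_F2, the largest of them, was higher in cortex in 25 of 25 mice, at 66789.5 ± 11960 against 57935 ± 1504 CPM (SD, n = 25), with a log2 fold change of 0.19 (SE 0.04, adjusted p = 5.53e-04). L1Md_A had 13157, 15422 and 32182 CPM in cortex and 12506, 13936 and 15576 CPM in hippocampus (lowest, median and highest), with a log2 fold change of 0.19 (SE 0.05, adjusted p = 0.00253). L1Md_T was higher in cortex in 23 of 25 mice, with medians of 24424 and 22309 CPM and a log2 fold change of 0.40 (SE 0.17, adjusted p = 0.0527). The single copy L1Md_T_dup9904 held 27.5% of its counts. L1Md_Gf had a log2 fold change of 0.19 (SE 0.08, adjusted p = 0.0470), L1Md_F 0.16 (SE 0.06, adjusted p = 0.0325) and L1Md_F3 0.15 (SE 0.06, adjusted p = 0.0302). Of the 25 mice, L1Md_Gf was higher in cortex in only 16, L1Md_F in 18, L1Md_F3 in 20 and L1Md_A in 22. Calls of L1Md_F and L1Md_Gf were lost without TMM factors, at 0.10 (adjusted p = 0.213) and 0.13 (adjusted p = 0.170), and that of L1Md_F also without its most abundant copy (0.12, adjusted p = 0.106).

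The share of a class in the L1 counts of a library needs no scaling factor, and the paired differences were tested by permutation (sign flips, two-sided, 100000 resamples, adjusted over 18 classes). Since the shares of a library add up to the whole, a higher share of a class lowers those of others. The 18 tests are therefore not independent, and a lower share does not say that a class had fewer counts. Of the 18 classes, 9 had a higher share in cortex and 5 in hippocampus at an adjusted p-value below 0.1. L1MC and L1MD together made up 7.698% ± 1.25 of the cortex counts and 8.76% ± 0.426 of the hippocampus counts (SD, n = 25), lower in cortex in 25 of 25 mice (permutation adjusted p = 9e-05). L1MA and L1MB made up 8.11% ± 1.23 and 9.07% ± 0.377 (lower in cortex in 22 of 25 mice, permutation adjusted p = 9e-05). Both had p = 2e-05 before adjustment, the smallest value that 100000 resamples can give by permutation. Lx and Lx2 made up 5.28% ± 0.698 of the counts in cortex and 4.64% ± 0.265 in hippocampus, higher in cortex in 24 of 25 mice (permutation adjusted p = 9e-05). L1Md_F2 made up 6.51% ± 0.732 and 5.92% ± 0.311 (higher in cortex in 22 of 25 mice, permutation adjusted p = 0.000257).

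The mean shares of some classes were moved by the outlying libraries. L1Md_T was higher in cortex by 1.303 percentage points in all mice and by 0.226 points without the 6 mice (permutation adjusted p = 0.000249, higher in 17 of 19 mice). The share of L1ME, the largest class, was 15.7% ± 4.86 in cortex and 17.02% ± 2.52 in hippocampus, a difference that did not pass the threshold in all mice (permutation adjusted p = 0.141) and was -2.17 points without the 6 mice (lower in cortex in 17 of 19 mice, permutation adjusted p = 9e-05). The shares of Lx5 and Lx6 and of Lx8, Lx9 and Lx10 differed by 0.0457 and 0.0169 points in all mice, less than the spread between mice. Without the 6 mice, the share of Lx8, Lx9 and Lx10 was higher in cortex by 0.369 points (18 of 19 mice, permutation adjusted p = 0.000108), and that of Lx7 by 0.437 points (19 of 19 mice, permutation adjusted p = 9e-05) against 0.140 in all mice (permutation adjusted p = 0.368).

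**Figure D4:**
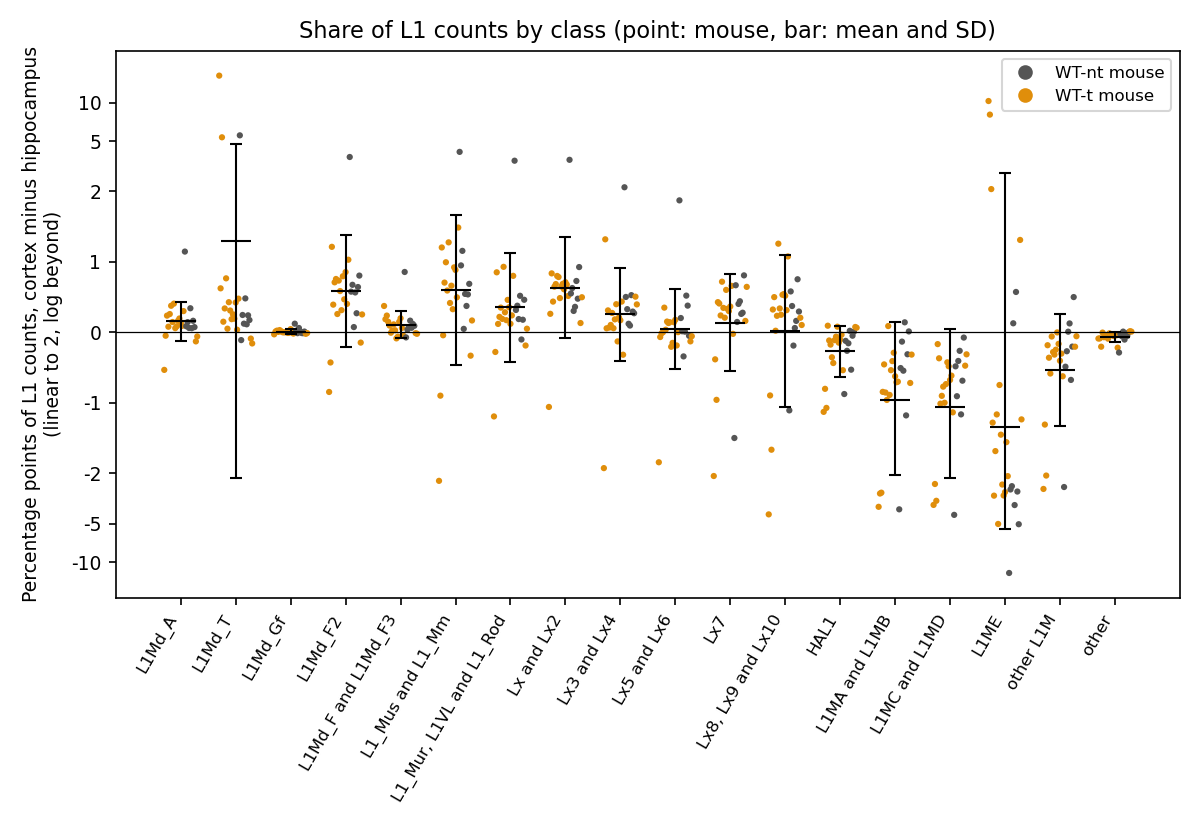
Difference between cortex and hippocampus in the share of L1 counts (y axis, percentage points, linear up to 2 and logarithmic beyond) by class of L1 (x axis). Each point is a mouse (grey WT-nt, orange WT-t), and bars give the mean and SD over 25 mice. All 25 points of L1MC and L1MD lie below 0, and 24 of the 25 of Lx and Lx2 above 0.

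Copies of a subfamily carry running numbers, and in the list of the study with positions, 21 of 21 neighbours by number followed each other in the order of the genome. Pairs of tested elements of a subfamily with consecutive numbers were therefore described as likely neighbours. Of 596 such pairs, 467 (78.4%) had log2 fold changes of the same sign, where 46.2% of all tested elements had a positive one. A single member was called in 105 pairs. Both members were called in 55 pairs, and in all 55 they had the same direction, with 20 pairs higher in cortex and 35 in hippocampus. Besides the pairs of Lx5 and L1Md_F2 above, examples chosen after their values were seen were Lx6_dup17277, Lx6_dup17278 and Lx6_dup17279, with log2 fold changes of 2.91, 2.95 and 2.63, and L1ME4a_dup607, L1ME4a_dup608 and L1ME4a_dup609, with -1.18, -1.45 and -0.86. Counts of called elements therefore do not count independent loci.

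Of the 11 called L1s with a known position, 5 were higher in cortex, of which 4 are described. Lx3C_dup1451, on chromosome 4 (78267017 to 78268379) and outside any annotated gene, had 0, 52.7 and 330.1 CPM in cortex and 0, 7.34 and 66.8 CPM in hippocampus (lowest, median and highest of the 25 mice), with a log2 fold change of 2.77 (SE 0.41, adjusted p = 1.15e-07). L1ME3A_dup48, printed above, had 0, 185 and 402 CPM in cortex and 0, 55.8 and 165 CPM in hippocampus and was higher in cortex in 24 of 25 mice, with a log2 fold change of 1.77 (SE 0.31, adjusted p = 5.31e-06). Reads of the 9130024F11Rik transcript and of this L1 cannot be told apart. Lx7_dup11750, also printed above, was expressed at 915 ± 246 and 544 ± 149 CPM (SD, n = 25), higher in cortex in 23 of 25 mice, with a log2 fold change of 0.74 (SE 0.14, adjusted p = 3.76e-05). Lx2_dup14390, on chromosome 13 (78238594 to 78243878) in an intron of the antisense gene A830082K12Rik, was higher in cortex in 22 of 25 mice, with a log2 fold change of 0.85 (SE 0.21, adjusted p = 0.00191).

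The other 6 were higher in hippocampus, of which 5 are described, while the sixth was left out by its chromosome and not by its values. L1Md_F2_dup47820, on chromosome 12 (50015570 to 50017476) and outside genes, had 0, 187 and 497 CPM in cortex and 167, 456 and 828 CPM in hippocampus (lowest, median and highest of the 25 mice). It was higher in hippocampus in 25 of 25 mice, with a log2 fold change of -1.37 (SE 0.20, adjusted p = 5.48e-08). Lx5c_dup5368 on chromosome 5 (104640220 to 104641102) and Lx4B_dup4733 on chromosome 14 (102945660 to 102946066) also lie outside genes, the latter 30515 bases from Kctd12, the gene of an auxiliary subunit of GABA-B receptors. Their log2 fold changes were -1.31 (SE 0.38, adjusted p = 0.0107) and -0.84 (SE 0.31, adjusted p = 0.0639). In exons of coding genes, L1MA4_dup880 on chromosome 2 (112471514 to 112471892) lies in Emc7, a subunit of the membrane protein complex of the endoplasmic reticulum, on the same strand, and L1ME1_dup2108 on chromosome 7 (109047222 to 109047771) lies in Ric3, a chaperone of acetylcholine receptors, on the opposite strand. L1MA4_dup880 had 594 ± 202 CPM in cortex and 800 ± 196 CPM in hippocampus (SD, n = 25), with a log2 fold change of -0.49 (SE 0.15, adjusted p = 0.0145), and L1ME1_dup2108 had 222 ± 77.2 and 313 ± 109.9 CPM, with -0.49 (SE 0.20, adjusted p = 0.0897). The call of L1ME1_dup2108 was lost with DESeq2 size factors (adjusted p = 0.158). Counting is not stated to use the strand, so reads of these genes and of the L1s in their exons cannot be told apart.

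The tissue difference was then compared between WT-nt and WT-t mice. The labels of all 8 WT-nt mice begin with 20, but those of only 3 WT-t mice do. A difference between the treatment groups could thus not be told apart from one between labels. The quasi-likelihood test of the tissue by treatment interaction called 0 of 4975 elements and 0 of 132 subfamilies, with 48 elements (0.965%) and 0 subfamilies at an unadjusted p-value below 0.05. For L1ME4a_dup1041 the log2 fold change was -3.75 (SE 0.22) in WT-nt and -3.47 (SE 0.14) in WT-t mice, and for Lx_dup1329 it was 2.41 (0.36) and 2.43 (0.25). The element with the smallest interaction p-value was L1Md_T_dup6533, which was higher in cortex in both groups, by 6.48 (SE 0.80) in WT-nt and 3.07 (SE 0.45) in WT-t mice (unadjusted p = 5.27e-04, adjusted p = 1.00). The next were Lx9_dup11178, with -1.75 in WT-nt and 4.22 in WT-t mice but no count in 14 cortex and 18 hippocampus libraries, Lx6_dup1403, with 1.19 and -1.31, L1Md_T_dup3587, with -1.84 and 1.77, and L1M5_dup4708, with -1.81 and 0.13. None of these passed the adjustment (adjusted p = 1.00 for all 5). Fitted alone, with fewer elements passing the filter, the 8 WT-nt mice gave 48 elements higher in cortex and 39 in hippocampus, and the 17 WT-t mice 145 and 163.

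The TS mice, untreated and lamivudine-treated together, gave a second set of animals for the same comparison, with no mouse shared with the WT set. In these 21 mice, 995 of the 4975 elements (20%) differed between the tissues. Of the 823 L1s called in WT mice, 805 (97.8%) had the same direction in TS mice and 577 (70.1%) were also called there with that direction, while 76.8% of all 4975 elements had the same direction. The median log2 fold change of all elements was 0.11 in TS and -0.07 in WT mice. Of the 337 L1s higher in WT cortex, 264 were called in TS mice as well, and of the 486 higher in WT hippocampus, 313. L1ME4a_dup1041 had a log2 fold change of -3.21 in TS mice, L1MA4_dup3516 -5.22, Lx_dup1329 2.27 and Lx9_dup10582 3.31. Of the 78 called subfamilies, 76 had the same direction and 65 were called in TS mice with that direction, and of all 132 subfamilies 111 had the same direction.

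The tissue by genotype interaction called 0 of 4975 elements and 0 of 132 subfamilies by edgeR's quasi-likelihood test, with 109 elements (2.19%) and 4 subfamilies at an unadjusted p-value below 0.05. The smallest adjusted p-value of an element was 1.00. The 5 elements with the smallest p-values were Lx7_dup2969, with a log2 fold change of -1.99 in WT and -0.10 in TS mice, L1M5_dup10517, with -1.38 and 0.63, L1MDa_dup968, with -0.27 and 1.50, L1Md_A_dup15761, with 0.73 and -0.59, and L1_Rod_dup4382, with 0.13 and 1.20. No element was thus shown to differ between tissues in WT mice but not in TS mice.

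**Figure D5:**
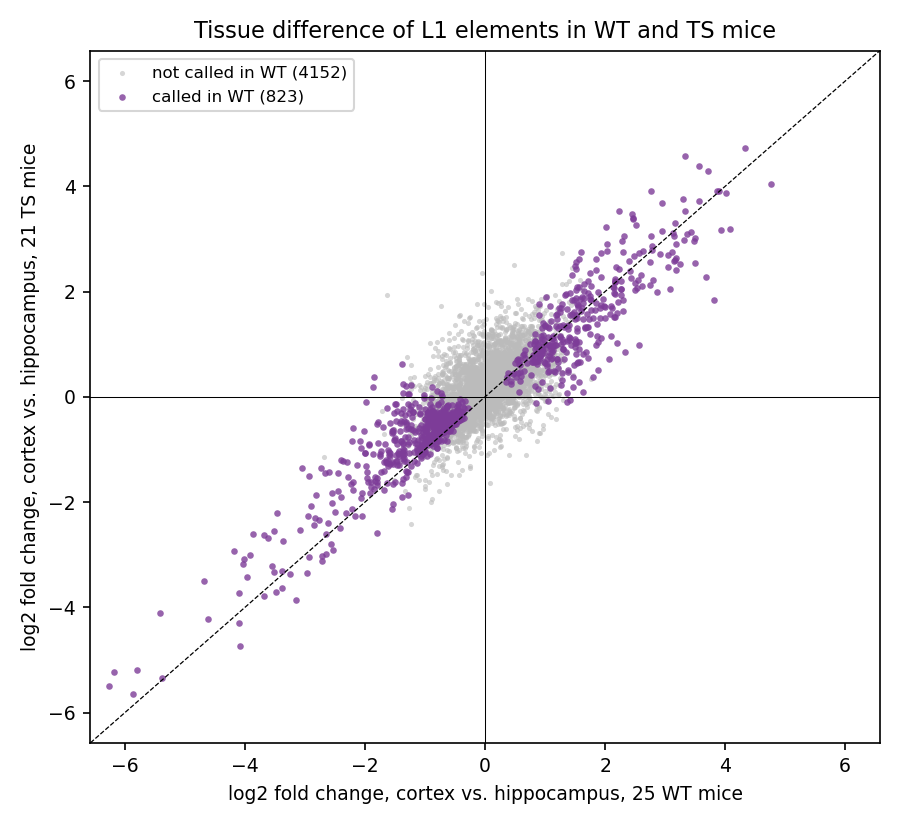
Log2 fold change between cortex and hippocampus in 25 WT mice (x axis) and in 21 TS mice (y axis) for the 4975 elements tested, with the 823 called in WT mice in purple and the others in grey. The dashed line marks equal values. Of the purple points, 805 lie in the lower left or upper right quadrant.

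The sum of L1 counts was higher in cortex, at 348920.3 ± 175839.8 against 257231 ± 35935 counts (SD, n = 25), and in 20 of 25 mice (two-sided permutation p = 6e-05 against a threshold of 0.05). The mean difference of 91689 counts rested in part on mouse 24, without which it was 56976 counts. The total also moves with the sequencing depth of a library, which was not used here, so that the sum does not say whether L1s make up more of the RNA in cortex. At an equal depth of 178454 counts, cortex libraries had a count on 39905 ± 11684 and hippocampus libraries on 33688 ± 6219 elements (SD, n = 25, permutation p = 0.0065, higher in cortex in 18 of 25 mice). Unthinned, the numbers were 48189 and 37223. The difference in elements was 9981 in WT-nt mice (exact permutation p = 0.0234, n = 8) and did not pass the threshold in WT-t mice alone, at 4446 (permutation p = 0.110, n = 17), where mouse 1 had 2814 elements in cortex. Without the 6 mice with an outlying library it was 8316 elements, higher in cortex in 16 of 19 mice (permutation p = 0.00012).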

How the data were processed

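RNA of both tissues was sequenced by a provider for the authors after ribosomal depletion (TruSeq Stranded Total RNA). Reads were processed with Trimmomatic 0.38 (trimming), HISAT2 2.1.0 (alignment to GRCm38/mm10, at most 5 alignments kept for a read) and Telescope (counting on L1 elements). The deposited values are raw counts, not normalized. Here, elements were filtered with filterByExpr (minimum count 10, total 15) over 4 groups (tissue by treatment), scaled with TMM and tested with edgeR 4.0.16 (R 4.3.3; quasi-likelihood, robust) with the mouse as a block, on the whole table, with Benjamini-Hochberg adjustment and the threshold of the study (0.1). Pairing comes from the animal, and deviations of the 2 tissues of a mouse correlated with a median r of 0.105 (-0.00 to 0.22, above 0.1 in 14 of 25 mice). Standard errors were taken from the quasi-likelihood F. Single values per library were compared with permutation tests by sign flips (100000 resamples, or exact for 8 mice), and libraries were thinned to 178454 counts. DESeq2 1.42.0, other scalings, filters, strata, animal labels and left-out mice were alternatives. The test was checked on simulated counts. The members, classes and lists were chosen with earlier results of these data known. Elements named were the 10 with the smallest p-value in each direction, the 5 most abundant in each tissue, the called L1s of the study's list with a position (up to 5 in each direction, of which some are not reported here) and the 5 with the smallest p-value in each interaction. Subfamilies named were the 6 of L1Md and the 5 with the smallest p-value in each direction. P-values measure the spread between mice as labelled. Intervals cover counting error only.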

Additional observations from a re-analysis of the deposited data

Results flagged for a closer look

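In the 8 WT-nt mice, the highest or the lowest paired difference between cortex and hippocampus stood apart from the other 7 mice for 34 of 81 values tested. The gap to the nearest mouse, as a share of the whole range, exceeded 0.526, Dixon's critical value for 8 samples, which chance exceeds in about 1 of 20 groups. Mouse 24, the WT-nt mouse with the highest L1 total in cortex, was the outlying mouse in 32 of the 34, so that these are not independent of each other. The part of this library in these values was not tested beyond leaving the mouse out.

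With mouse 24 apart, the ratio was 0.899 for the L1 total. For the share of L1 counts by class it was 0.668 for L1MA and L1MB, 0.739 for L1MC and L1MD, 0.561 for L1ME, 0.616 for the other L1M, 0.740 for L1Md_A, 0.744 for L1Md_F and L1Md_F3, 0.801 for L1Md_F2 and 0.895 for L1Md_T. For the share of the other rodent classes it was 0.828 for L1_Mur, L1VL and L1_Rod, 0.727 for L1_Mus and L1_Mm, 0.808 for Lx and Lx2, 0.791 for Lx3 and Lx4, 0.610 for Lx5 and Lx6, 0.714 for Lx7, and 0.619 for elements of no class.

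For the log2 difference of subfamilies, mouse 24 stood apart with a ratio of 0.781 for L1Md_A, 0.712 for L1Md_F, 0.902 for L1Md_F2, 0.813 for L1Md_F3, 0.853 for L1Md_T, 0.645 for Lx, 0.739 for L1_Mur1, 0.582 for Lx2A1, 0.668 for Lx9 and 0.549 for Lx2B2. Among the ancient subfamilies the ratio was 0.706 for L1ME4a, 0.761 for L1MD1 and 0.827 for L1M2b. For single elements it was 0.874 for L1ME4a_dup1041, 0.734 for L1_Mur3_dup13179 and 0.883 for Lx7_dup29483. Mouse 45 stood apart for L1MEd_dup2089, with a ratio of 0.775, and for L1Md_T_dup3587, with 0.554. The 16 subfamilies named and called in all mice were called in the same direction without the 6 mice with an outlying library, mouse 24 among them. In WT-nt mice alone, with mouse 24 included, 2 of these 16 were called.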

How the results depend on the processing

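Of the 823 called elements, every one tested kept its sign under the alternatives of scaling, filter, block and model, and 711 of 795 tested were called without the mice with an outlying library. With no filter 196 of the 823 were called, and with at least 10 counts in total 234, and each of these lost 10 of the 34 called elements chosen by the naming rule. Counts of calls moved more, and the cause was not tested except where fewer mice or elements entered. The numbers of elements higher in cortex and hippocampus were 249 and 323 at an adjusted p-value below 0.05, 729 and 755 with DESeq2, 284 and 150 with no filter, 389 and 197 with at least 10 counts in total, and 594 and 513 without the mice with an outlying library. They were 48 and 39 in WT-nt and 145 and 163 in WT-t mice alone, and 2 and 1, 220 and 176, and 110 and 126 in mice with labels beginning with 18, 19 and 20. Subfamilies numbered 23 and 44 without TMM factors, 0 and 2 in WT-nt mice, and 14 and 17 or 4 and 9 with labels beginning with 18 or 20 (edgeR). Without the mouse as a block, the paired design was lost, and 395 and 446 elements and 42 and 38 subfamilies were called (729 elements and 76 subfamilies shared). Leaving out a mouse gave at least 289 and 414 elements (both directions within 1.5 times the value in all mice), 29 to 40 and 36 to 42 subfamilies, a difference in L1 total of 56976 to 96996 counts, and one in elements at equal depth of 5603 to 7281.

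In WT-t mice alone, 4 classes had a higher share in cortex, and the difference in elements at equal depth was 4446 and missed the threshold. Most of the signs that turned were of values that had not passed the threshold or rested on 1 copy. These were Lx7_dup29483 (-0.0558 without TMM factors, -0.0155 with labels beginning with 18), Lx3B_dup3459 (-0.110 and -0.0422 there, and -0.0147 to 0.0944 on leaving out a mouse), L1_Rod_dup4382 (-0.0259 without TMM factors, -0.13 with label 19), L1Md_T_dup9904 (-0.21), Lx9_dup11178 (-0.0497) and L1Md_T_dup3587 (-0.80) with label 20, Lx6_dup1403 (1.27 in WT-nt mice, 0.68 with label 20) and L1M5_dup4708 (0.23 in WT-t mice, 0.40 and 0.0293 with labels 18 and 19). Without its most abundant copy, subfamily L1M2b turned to 0.56. The difference in share turned for Lx5 and Lx6 (-0.0871 points) and Lx8, Lx9 and Lx10 (-0.0307) in WT-t mice. Without the most abundant copy of each subfamily it turned for Lx8, Lx9 and Lx10 (-0.0265) and for elements of no class (0.00478). The difference for elements of no class had passed the threshold in all mice (-0.0610 points). Of the alternative values of single elements, subfamilies and shares, 741 kept direction and side of the threshold, 116 missed it, 26 newly passed it and 20 turned. Low counts limit single elements, since 4975 of 320963 with a count could be tested.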

Other observations

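The WT-nt mouse with a cortex library only had 324096 L1 counts on 58058 elements. Of the 45 elements chosen by the naming rule, 44 had a CPM (here without TMM factors) within the range of the 25 paired cortex libraries, and 24 within the range of the hippocampus libraries. Lx_dup1329 had 596 CPM in this library, above the highest hippocampus value of 557 CPM. Ranges of the cortex libraries were wide, such as 328 to 241824 CPM for L1MEd_dup2089. Many of the elements were also named for their tissue difference in the paired libraries. The counts of 44 and 24 are therefore a description and not a test.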
